A study of Mus musculus with 18 samples.

Results

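S100a8, S100a9 and 8 genes that mark neutrophils were followed through 18 RNA-seq libraries of mouse epidermis taken with and without a single exposure to ultraviolet B light (UVB). The 10 genes were chosen by name and found among the 56246 genes of the count table through their Ensembl identifiers and GENCODE M21 symbols. S100a8 and S100a9 form the S100 pair in what follows, and Csf3r, Cxcr2, Ly6g, Retnlg, Stfa2l1, Clec4d, Clec4e and Trem1 are called the neutrophil-only genes. The name sets them against the S100 pair, and whether keratinocytes made part of their RNA was not tested. Clec4d, Clec4e and Trem1 are also made by monocytes and other myeloid cells. Of the 10 genes, 9 passed the filter on low counts and were tested, and Trem1 did not.

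Neutrophils are short-lived white blood cells that leave the blood for inflamed or sunburnt skin. They follow CXC chemokines sensed by the receptor encoded by Cxcr2, and their production and survival depend on granulocyte colony-stimulating factor, which acts on the receptor encoded by Csf3r. S100a8 and S100a9 encode the subunits of calprotectin, a calcium-binding and metal-binding protein that fills the neutrophil cytoplasm. Keratinocytes make both subunits too when the epidermis is wounded, inflamed or irradiated, so that this pair can come from either cell type in a scraped epidermis.

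The mice were males of 10 weeks. The K14-OPN mice carried a transgene that expresses osteopontin (OPN, encoded by Spp1) from the keratin 14 promoter, which is active in basal keratinocytes, and they lacked the endogenous gene, as the OPN-null mice did. The third genotype was wild type (WT). Irradiated mice received UVB at 180 mJ per cm2, 48 h after shaving, and the epidermis was scraped from their back skin 24 h later. Shaving is not recorded for the unirradiated mice, so that a part of shaving in the UVB comparisons cannot be told apart from UVB. There were 3 irradiated and 3 unirradiated K14-OPN libraries, 3 irradiated and 2 unirradiated WT libraries, and 4 irradiated and 3 unirradiated OPN-null libraries, named here by the numbers in their labels. Nothing in the labels says that each library is a separate mouse, and the p-values therefore rest on a spread between libraries that may be technical in part.

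Counts assigned to genes ran from 3696865 to 26068614 per library, with a median of 10675108. The libraries were of 2 kinds that the labels do not describe. In 6 libraries, 1 in each group, counts of Rn7sk (7SK RNA, which has no poly(A) tail) exceeded those of Lars2, and in the other 12 Lars2 exceeded Rn7sk; these are called 7SK-rich and Lars2-rich. Keratinocyte markers summed to between 6312 and 38701 CPM in every library (CPM are counts scaled to library size, with edgeR's TMM factors). Spp1 had 6139 to 14948 counts in the irradiated K14-OPN libraries, 276 to 3443 in the irradiated WT libraries and 20 to 74 in the irradiated OPN-null libraries. Among the unirradiated libraries, Spp1 had 226 to 994 counts in K14-OPN, 51 and 121 in WT, and 0 to 74 in OPN-null, so that WT and OPN-null libraries overlapped. Unirradiated K14-OPN library 1 was the highest unirradiated library in each of the 9 tested genes, and the comparisons that rest on it are given with and without it.

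S100a8 (ENSMUSG00000056054.9) lies on chromosome 3 at 90668978 to 90670035 on the plus strand, and S100a9 (ENSMUSG00000056071.12) at 90692632 to 90695721 on the minus strand, 22596 bases from it (GRCm38). Clec4d and Clec4e are neighbours on chromosome 6, 6523 bases apart on opposite strands. Csf3r lies on chromosome 4, Cxcr2 on chromosome 1, Ly6g on chromosome 15, Retnlg and Stfa2l1 on chromosome 16 and Trem1 on chromosome 17. All 10 are protein-coding, and Trem1 alone overlaps another annotated gene, AC241601.2 on the other strand, with which it shares 0 exonic bases.

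Promoter sequences were available from RefSeq (GRCm38.p6) for all 10 genes, from 250 bases before to 50 bases after the annotated start. Those of the S100 pair are printed because both genes are also made by keratinocytes, and those of Csf3r and Clec4e for comparison, as neutrophil-only genes. Capitals mark matches to TGANTCA (AP-1), TTGCNNAA (C/EBP) and GAGGAAG (ETS), searched on both strands, and to TATAAA on the strand of the gene. The motifs were matched as letters and may overlap.
S100a8, chr3:90668821-90669120, plus strand: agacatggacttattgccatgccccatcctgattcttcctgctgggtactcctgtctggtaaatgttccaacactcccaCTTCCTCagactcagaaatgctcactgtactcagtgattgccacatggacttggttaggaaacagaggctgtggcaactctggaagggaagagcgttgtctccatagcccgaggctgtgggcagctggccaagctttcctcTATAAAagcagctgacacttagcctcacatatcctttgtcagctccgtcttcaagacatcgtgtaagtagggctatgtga
S100a9, chr3:90695672-90695971, minus strand: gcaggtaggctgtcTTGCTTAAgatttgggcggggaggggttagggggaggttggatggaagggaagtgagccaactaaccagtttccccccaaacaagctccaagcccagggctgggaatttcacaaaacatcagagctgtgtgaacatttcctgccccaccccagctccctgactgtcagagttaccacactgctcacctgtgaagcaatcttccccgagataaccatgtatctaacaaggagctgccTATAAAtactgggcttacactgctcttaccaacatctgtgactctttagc
Csf3r, chr4:126024409-126024708, plus strand: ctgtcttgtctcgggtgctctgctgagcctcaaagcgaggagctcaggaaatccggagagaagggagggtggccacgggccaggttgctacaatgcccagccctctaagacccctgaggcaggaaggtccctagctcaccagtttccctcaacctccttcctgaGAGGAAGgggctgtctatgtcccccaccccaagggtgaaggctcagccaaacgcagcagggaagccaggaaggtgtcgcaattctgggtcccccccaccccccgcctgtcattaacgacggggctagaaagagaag
Clec4e, chr6:123289822-123290121, minus strand: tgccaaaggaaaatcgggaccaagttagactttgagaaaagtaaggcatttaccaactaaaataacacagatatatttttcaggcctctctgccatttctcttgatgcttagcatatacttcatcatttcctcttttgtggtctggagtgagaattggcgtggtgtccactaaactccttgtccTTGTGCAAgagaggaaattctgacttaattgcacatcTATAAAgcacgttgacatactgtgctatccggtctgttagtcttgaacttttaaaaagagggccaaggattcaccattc
TATAAA began at position -30 in the S100a8 promoter, at -29 in that of Clec4e and at position 1, the annotated start itself, in that of S100a9. It was present in 4 of the 10 genes and in 8.32% of 32851 mouse promoters. The C/EBP letters were present in 4 of the 10 genes, S100a9 and Clec4e among them, and in 10.8% of all promoters. The ETS letters were present in 4 of the 10, S100a8 and Csf3r among them, and in 13.6% of all promoters. The AP-1 letters were present in 0 of the 10 and in 7.81% of all promoters. A match describes the letters only.

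S100a8 was high in irradiated epidermis of all genotypes and low in 7 of the 8 unirradiated libraries. In K14-OPN it stood at 496, 2926 and 1214 CPM in irradiated libraries 1, 2 and 3, against 2077, 5.24 and 36.6 CPM in unirradiated libraries 1, 2 and 11. In WT it stood at 353, 609 and 107 CPM in irradiated libraries 6, 7 and 8, against 18.7 and 3.68 CPM in unirradiated libraries 10 and 11. In OPN-null it stood at 1853, 2069, 894 and 124 CPM in irradiated libraries 13, 14, 15 and 16, against 66.4, 45.6 and 13.2 CPM in unirradiated libraries 8, 9 and 10. The groups did not overlap in WT or OPN-null, and in K14-OPN they overlapped through unirradiated library 1 alone. Libraries are listed in the same order for every gene. In bulk epidermis, fewer cells of a type and less RNA per cell cannot be told apart.

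S100a9, the partner subunit, was likewise high after UVB and in unirradiated K14-OPN library 1. In K14-OPN its level was 423, 5211 and 2182 CPM after UVB, against 5855, 6.80 and 21.9 CPM without UVB. In WT its level was 552, 1059 and 67.75 CPM after UVB, against 54.1 and 3.58 CPM without UVB. In OPN-null its level was 3709, 3928, 1271 and 113 CPM after UVB, against 128, 63.4 and 18.4 CPM without UVB. The lowest irradiated library of each genotype was its 7SK-rich one. In OPN-null that library (16) fell below unirradiated library 8, so that the groups overlapped there, and in WT they did not. The ratio of S100a9 to S100a8 counts, not corrected for length, had a median of 1.49 and a range of 0.598 to 2.90 over the 18 libraries.

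Csf3r, the receptor for granulocyte colony-stimulating factor, was lower in every irradiated WT library than in any irradiated library of the other genotypes. In K14-OPN its level was 44.4, 152 and 105 CPM after UVB, against 94.0, 0.991 and 0.104 CPM without UVB. In WT its level was 7.91, 6.83 and 4.55 CPM after UVB, against 3.73 and 0.397 CPM without UVB. In OPN-null its level was 66.8, 88.4, 23.4 and 16.4 CPM after UVB, against 12.8, 0 and 10.9 CPM without UVB. The irradiated WT and OPN-null groups lay above their unirradiated groups without overlap. Clec4e was also lower in every irradiated WT library than in any irradiated K14-OPN library, but irradiated WT and OPN-null libraries overlapped in it. How many of all genes separate irradiated WT from both other genotypes, as Csf3r did, was not counted.

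Cxcr2, the receptor for the CXC chemokines that draw neutrophils, did not show that separation between irradiated genotypes. In K14-OPN its level was 26.3, 101 and 65.3 CPM after UVB, against 70.1, 2.41 and 0.209 CPM without UVB. In WT its level was 30.9, 20.7 and 16.1 CPM after UVB, against 1.12 and 1.29 CPM without UVB. In OPN-null its level was 31.9, 47.0, 18.9 and 18.7 CPM after UVB, against 8.79, 1.42 and 5.53 CPM without UVB. The irradiated libraries of WT and OPN-null lay above the unirradiated ones without overlap.

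Retnlg encodes a resistin-like secreted protein of mouse neutrophils. In K14-OPN its level was 1.88, 131 and 62.3 CPM after UVB, against 402, 0 and 0.522 CPM without UVB. In WT its level was 9.26, 9.26 and 0.144 CPM after UVB, against 1.12 and 0.0497 CPM without UVB. In OPN-null its level was 65.9, 110 and 7.03 CPM in the Lars2-rich irradiated libraries and 0.294 CPM in 7SK-rich library 16, against 0, 0 and 0.889 CPM without UVB. The groups overlapped in every genotype, in WT and OPN-null through a single 7SK-rich irradiated library.

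Clec4d and Clec4e encode C-type lectin receptors of myeloid cells, of which the Clec4e product (Mincle) recognises mycobacterial glycolipid. Clec4d in K14-OPN reached 37.6, 704 and 694 CPM after UVB, against 1857, 1.56 and 1.46 CPM without UVB. In WT Clec4d reached 97.3, 143 and 4.40 CPM after UVB, against 19.0 and 0.497 CPM without UVB. In OPN-null Clec4d reached 510, 799, 110 and 7.45 CPM after UVB, against 67.7, 14.2 and 18.7 CPM without UVB. The Clec4d groups overlapped in all 3 genotypes. Clec4e ranged from 45.5 to 299 CPM in irradiated K14-OPN, against 0 to 286 CPM in unirradiated K14-OPN, and from 5.45 to 34.3 CPM in irradiated WT, against 0.546 and 6.35 CPM in unirradiated WT. In OPN-null Clec4e ranged from 14.9 to 200 CPM after UVB, against 1.42 to 11.9 CPM without UVB, and the groups did not overlap.

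Stfa2l1, a member of the stefin A family of cysteine protease inhibitors, ranged from 4.06 to 137 CPM in irradiated K14-OPN, against 0 to 223 CPM in unirradiated K14-OPN. It had 160, 84 and 5 counts in irradiated WT libraries 6, 7 and 8, against 0 counts in both unirradiated WT libraries. Taking 3 counts over the unirradiated group as the limit that a count of 0 allows, its summed level was at least 47.2-fold higher after UVB in WT. That bound rests mostly on 7SK-rich unirradiated library 11, and within a kind it was 11.3-fold in Lars2-rich and 1.61-fold in 7SK-rich libraries. Ly6g, which encodes the surface antigen used to identify mouse neutrophils, was close to the limit of detection, with 1, 41 and 84 counts in irradiated K14-OPN, against 18, 0 and 0 counts in unirradiated K14-OPN. It had 0 to 8 counts in irradiated WT, against 0 in unirradiated WT, and 0 to 16 counts in irradiated OPN-null, against 0 to 8 in unirradiated OPN-null. Trem1, an activating receptor of neutrophils and monocytes, had 1 count in the 18 libraries together, in unirradiated K14-OPN library 1. Per kilobase of exon, the median over the 10 irradiated libraries was 2232 CPM for S100a9 and 1083 CPM for S100a8, and it was 79.1 CPM for Clec4d, 42.2 for Stfa2l1, 15.6 for Retnlg, 9.39 for Csf3r, 9.37 for Cxcr2, 8.25 for Clec4e and 0.849 for Ly6g.

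**Figure D1:**
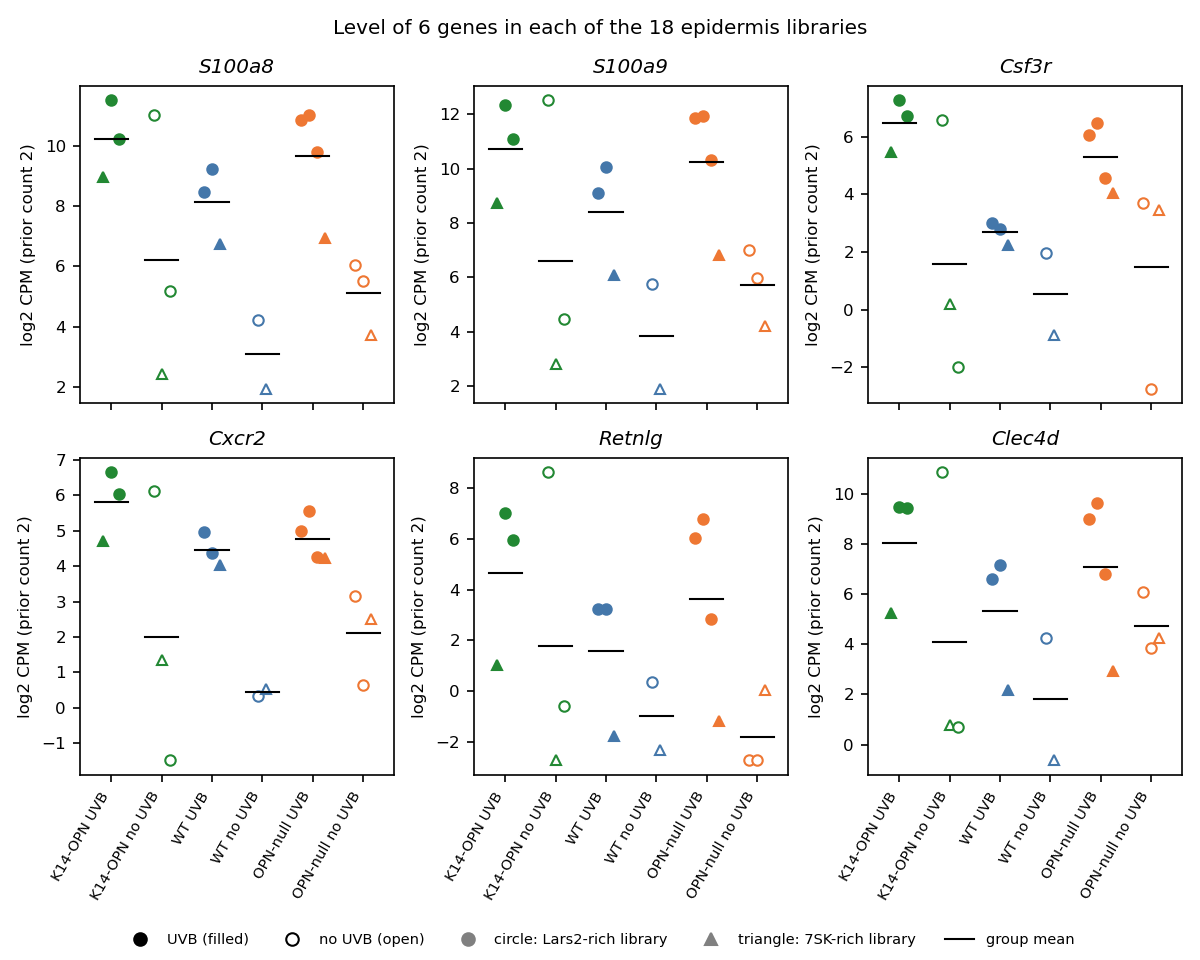
Level of S100a8, S100a9, Csf3r, Cxcr2, Retnlg and Clec4d in each library, as log2 CPM with a prior count of 2, in irradiated (filled) and unirradiated (open) libraries of K14-OPN, WT and OPN-null; triangles are 7SK-rich and circles Lars2-rich libraries, and bars are group means. One unirradiated K14-OPN library, number 1, is the highest unirradiated library in all 6 panels and lies above every irradiated library in S100a9, Retnlg and Clec4d.

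Library kind moved with these levels. In a fit with a term for it, 6 of the 9 tested genes were lower in 7SK-rich than in Lars2-rich libraries (15.7% of all 18910 tested genes were lower). S100a8 was lower by a log2 difference of -2.88 (adjusted p = 0.00631), S100a9 by -3.91, Clec4d by -4.61, Ly6g by -4.99, Stfa2l1 by -5.23 and Retnlg by -5.60 (largest adjusted p = 0.0101, Benjamini-Hochberg over all genes). Csf3r (-1.55), Cxcr2 (-1.07) and Clec4e (-2.54) did not pass the test. Each group held 1 7SK-rich library, but groups of unequal size held them in unequal shares. The share was 1 of 3 irradiated and 1 of 2 unirradiated libraries in WT, and 1 of 4 and 1 of 3 in OPN-null. In K14-OPN it was 1 of 3 in both groups. Fits without the term for kind do not correct for these shares.

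The question of the UVB comparisons is which of the 10 genes differed between irradiated and unirradiated epidermis of the same genotype. In the WT comparison, the fitted log2 fold change over all 18 libraries was 5.02 ± 2.00 for S100a8 (SE; n = 3 irradiated and 2 unirradiated libraries; edgeR quasi-likelihood, adjusted p = 0.270). It was 4.29 ± 2.33 for S100a9, 4.19 ± 1.55 for Cxcr2 and 1.91 ± 1.83 for Csf3r. None of the 9 genes passed the threshold of an adjusted p of 0.05, where 0.0952% of all genes passed. An unadjusted p under 0.05 was found for 2 of the 9 and for 13% of all genes. All 9 fitted changes were positive, with a median of 4.29, or 4.19 with Stfa2l1 and Ly6g at the bound their counts of 0 allow, and the median of all genes was -0.15. In 5 of the 9 (S100a8, S100a9, Csf3r, Cxcr2 and Stfa2l1) every irradiated WT library lay above every unirradiated one, as in 14.8% of all genes.

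In OPN-null epidermis the fitted log2 fold change was 4.89 ± 1.62 for S100a8 (SE; n = 4 irradiated and 3 unirradiated libraries; adjusted p = 0.102) and 5.01 ± 1.99 for S100a9 (adjusted p = 0.163, edgeR). It was 6.35 ± 2.7 for Retnlg, 5.15 ± 2.40 for Stfa2l1, 2.56 ± 1.43 for Csf3r and -0.70 ± 2.02 for Ly6g. Here too 0 of the 9 passed the threshold, where 3.41% of all genes passed, and 5 of the 9 had an unadjusted p under 0.05, as did 21% of all genes. In S100a8, Csf3r, Cxcr2 and Clec4e, 4 of the 9, the groups did not overlap, as in 11.3% of all genes. The exact two-sided permutation test of log2 CPM over the 7 libraries gave p = 0.0286 for Csf3r and for Cxcr2, the smallest that 35 assignments allow, and 0.0571 for S100a8 and Clec4e. These were single-gene values without adjustment over the 9 genes.

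In K14-OPN epidermis the fitted log2 fold change was 1.13 ± 1.42 for S100a8 (SE; n = 3 each; adjusted p = 0.792), 0.41 ± 1.71 for S100a9 and 1.68 ± 1.41 for Csf3r by edgeR. Again 0 of the 9 passed the threshold, none had an unadjusted p under 0.05 and none separated the groups, where 1.06% of all genes passed, 15.6% had such a p and 11.5% separated the groups. The median fitted change of the 9 genes was 0.41. The means of log2 CPM, to which a single high library adds less, differed by 4.02 for S100a8, 4.13 for S100a9 and 4.89 for Csf3r. The fitted changes compare group means on the count scale, where unirradiated library 1 made up most of its group.

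**Figure D2:**
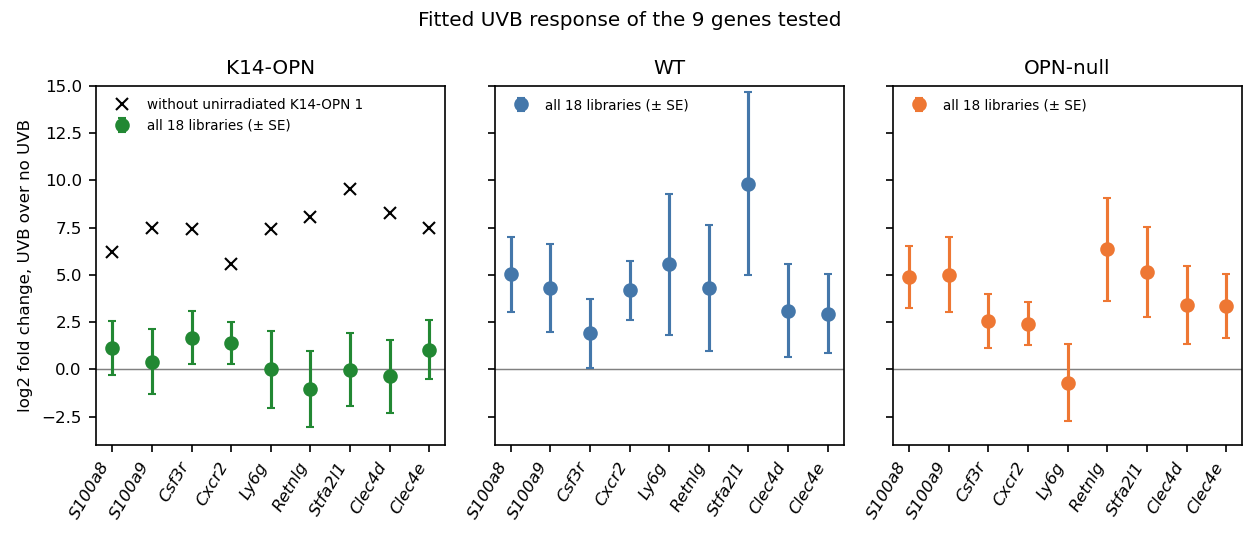
Fitted log2 fold change of UVB over no UVB for the 9 genes tested in K14-OPN, WT and OPN-null epidermis, with standard errors (edgeR, all 18 libraries); crosses give K14-OPN values fitted without unirradiated library 1. The K14-OPN values lie between -1.04 and 1.68 with that library and between 5.57 and 9.54 without it, and those of Ly6g and Stfa2l1 in WT depend on the prior count because both unirradiated libraries had 0 counts.

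Unirradiated K14-OPN library 1 was the highest of the 8 unirradiated libraries for each of the 9 tested genes, and the highest of all 18 libraries for S100a9, Ly6g, Retnlg, Stfa2l1 and Clec4d. It exceeded the next unirradiated library 31.3-fold in S100a8, 45.8-fold in S100a9, 359-fold in Retnlg, 27.4-fold in Clec4d, 7.37-fold in Csf3r and 1.33-fold in Ly6g. The 8 neutrophil-only genes summed to 2938 CPM there, against 2.50 and 7.08 CPM in the other unirradiated K14-OPN libraries. The same library was the highest unirradiated one for 11 neutrophil chemoattractants and growth factors (4891 CPM, above every irradiated library), 14 wound keratinocyte genes (11222 CPM, below every irradiated library), macrophage and monocyte markers (249 CPM), platelet genes (76.9 CPM) and red blood cell genes (685 CPM). It held 4213466 gene counts, 18.8% of its read total in genes, and its Spp1 count was 226. The part of these cell types and of depth in its levels was not tested. The labels give nothing that sets this library apart, and whether its skin was injured or its label is wrong was not tested, which limits every value that rests on it.

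Without that library the K14-OPN comparison changed. Of the 9 genes, 5 then rose after UVB, namely S100a8, S100a9, Csf3r, Cxcr2 and Clec4e, where 4.21% of all genes passed. The fitted log2 fold change was then 6.21 for S100a8 (adjusted p = 0.0341), 7.51 for S100a9 (adjusted p = 0.0441), 7.42 for Csf3r (adjusted p = 0.0152) and 5.57 for Cxcr2 (adjusted p = 0.00996, edgeR, n = 3 and 2). With a term for library kind as well, 8 of the 9 rose and Ly6g did not pass, where 11.7% of all genes passed; S100a8 then stood at 6.12 (adjusted p = 0.000102). Leaving out each library in turn was planned, and joining this with the term for kind was chosen after its values were seen. Among those runs this library was singled out because it was the highest unirradiated one in these same 9 genes. Leaving it out therefore lowers their unirradiated level by construction, and the p-values without it cannot serve as tests of a rise.

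With library kind as a term and all 18 libraries, S100a8 rose in OPN-null, with a log2 fold change of 4.36 ± 1.15 (SE, adjusted p = 0.0201), and S100a9 stood at 4.09 ± 1.33 (adjusted p = 0.0512). The neutrophil-only genes ran from -1.78 for Ly6g to 2.66 for Stfa2l1 there, and none of the 7 tested passed; 13.7% of all genes passed in that comparison. None of the 9 passed in WT, where S100a8 had 4.67 ± 1.42 (adjusted p = 0.0736) and 3.73% of all genes passed, or in K14-OPN, where S100a8 had 1.86 ± 1.08 (adjusted p = 0.307) and 7.71% passed. Whether the S100 pair and the neutrophil-only genes differed in their response was not tested.

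Within each kind of library, the mean log2 CPM of the S100 pair was higher after UVB in every genotype, although the Lars2-rich K14-OPN groups overlapped. Between the single 7SK-rich libraries of each genotype, S100a8 differed by 6.53 in K14-OPN, 4.80 in WT and 3.21 in OPN-null on the log2 CPM scale, irradiated minus unirradiated, with no replicates. Between the Lars2-rich libraries it differed by 2.77 in K14-OPN, 4.62 in WT and 4.77 in OPN-null. In the 7SK-rich K14-OPN and WT pairs no neutrophil-only gene was lower after UVB, with differences of 0 to 5.29. In the 7SK-rich OPN-null pair Cxcr2 differed by 1.73, Csf3r by 0.58 and Clec4e by 0.43, and the other 4 were lower, Clec4d by -1.31, Retnlg by -1.23, Ly6g by -1.22 and Stfa2l1 by -0.42, while in the Lars2-rich OPN-null libraries the differences were 3.51, 7.97, 0.59 and 6.32 in the same order of genes. The 4 negative 7SK-rich values rest on 0 to 152 counts in irradiated library 16, against 4 to 378 counts in unirradiated library 10.

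Counts of S100a8 per count of Csf3r put the pair beside a neutrophil-only gene within each library. The ratio was 11.2, 19.2 and 11.6 in irradiated K14-OPN libraries 1, 2 and 3, and 22.1 and 5.29 in unirradiated K14-OPN libraries 1 and 2. It was 44.6, 89.1 and 23.5 in irradiated WT libraries 6, 7 and 8, against 5 and 9.25 in unirradiated libraries 10 and 11. In irradiated OPN-null libraries it ranged from 7.55 to 38.3 (median 25.6), against 5.21 and 1.21 in unirradiated libraries 8 and 10. Irradiated WT libraries had more S100a8 per Csf3r count than every K14-OPN library with a ratio, irradiated or not. That order did not hold with Cxcr2 or Clec4d as the denominator. Per count of Cxcr2, S100a8 stood at 11.4, 29.5 and 6.62 in irradiated WT, against 18.9, 29.0 and 18.6 in irradiated K14-OPN. Per count of Clec4d it ranged from 3.63 to 24.25 in irradiated WT, against 1.75 to 13.2 in irradiated K14-OPN. Unirradiated K14-OPN 11 and OPN-null 9 had 3 or fewer Csf3r counts and give no ratio. A ratio within a library shows that 2 genes differ unequally, and does not show which of them moved.

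With all neutrophil-only genes in the denominator, the ratio of S100 pair counts was 5.76, 5.33 and 2.7 in irradiated K14-OPN, against 2.7, 1.70 and 23.4 in unirradiated K14-OPN. In WT it was 4.79, 7.31 and 5.65 after UVB, against 2.32 and 2.61 without UVB. In OPN-null it ranged from 4.05 to 9.86 after UVB, against 1.78, 6.38 and 0.656 without UVB. Clec4d made up 12.8% to 83.3% of the neutrophil-only counts of a library, with a median of 53.3%. The values above 6 in unirradiated epidermis, in K14-OPN 11 and OPN-null 9, each rest on 24 counts of neutrophil-only genes.

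**Figure D3:**
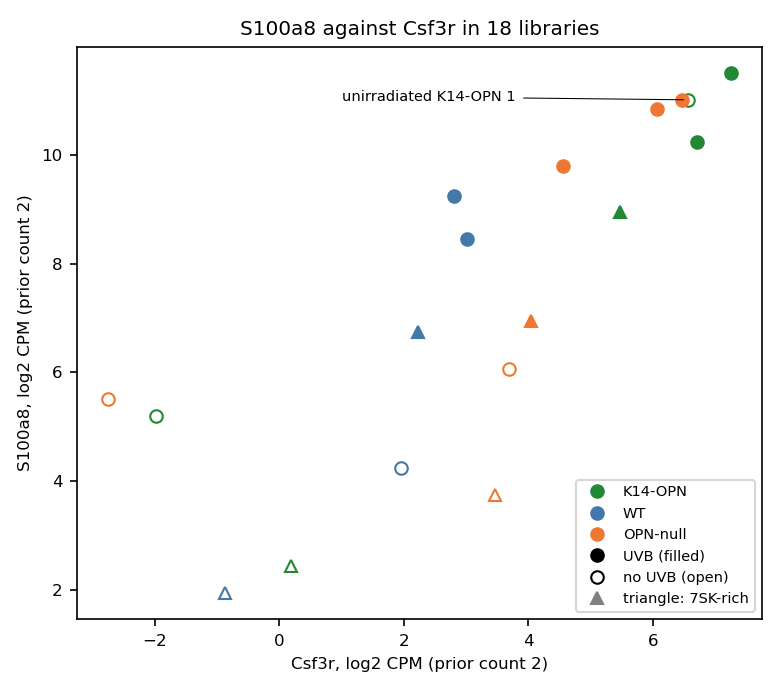
S100a8 against Csf3r in the 18 libraries, each as log2 CPM with a prior count of 2; filled symbols are irradiated and open symbols unirradiated libraries, triangles are 7SK-rich, and colours are genotypes. Irradiated WT libraries have S100a8 levels above 100 CPM at Csf3r levels under 8 CPM, and unirradiated K14-OPN 1 lies among the irradiated OPN-null and K14-OPN libraries.

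The genotype comparisons ask whether the genes differed with epidermal or endogenous osteopontin. After UVB, the fitted log2 difference of K14-OPN from OPN-null was 0.32 ± 1.30 for S100a8 and 1.04 ± 1.27 for Csf3r, and its median over the 9 genes was 0.51 (SE, edgeR). The difference of WT from OPN-null was -1.79 ± 1.38 for S100a8 and -2.92 ± 1.44 for Csf3r, with a median of -2.01. The difference of K14-OPN from WT was 2.12 ± 1.46 for S100a8 and 3.97 ± 1.55 for Csf3r, with a median of 2.55. None of the 9 genes passed in any of the 3, where 0%, 0.00529% and 0% of all genes passed. The smallest unadjusted p was that of Csf3r in K14-OPN over WT, 0.0201, which was 1 after adjustment, and 2.06% of all genes had a p under 0.05 there. These 3 comparisons share libraries and are not independent.

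Within the 7SK-rich irradiated libraries, Csf3r was 44.4 CPM in K14-OPN, 4.55 CPM in WT and 16.4 CPM in OPN-null, and S100a8 was 496, 107 and 124 CPM in the same order, with 1 library each. Without UVB, none of the 9 genes passed in K14-OPN over OPN-null, WT over OPN-null or K14-OPN over WT, and 0% of all genes passed in each. An unadjusted p under 0.05 was found for 4 of the 9 in K14-OPN over OPN-null (5.91% of all genes) and for 7 in K14-OPN over WT (1.95% of all genes), all higher in K14-OPN. Without unirradiated K14-OPN 1 such a p was found for 4 in K14-OPN over OPN-null, all lower in K14-OPN (6.43% of all genes), and for 0 in K14-OPN over WT. Nor did any of the 9 pass the test of a different UVB response in K14-OPN than in OPN-null, or in WT than in OPN-null, and 0% of all genes passed in either. Leaving out unirradiated K14-OPN 1 left 0 of the 9 called in those of these comparisons that use it. The median difference of response from OPN-null was -3.76 for K14-OPN and -0.29 for WT on the log2 scale. For K14-OPN it turned to 4.10 without unirradiated K14-OPN 1, with all 9 differences positive and 5 at an unadjusted p under 0.05 (4.7% of all genes). That library was singled out by its values of these same genes. The values without it only describe how far the comparisons rest on it.

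Of 24 other mature neutrophil genes, 23 were tested, and 1 rose after UVB in OPN-null (3.41% of all genes passed there), 0 in WT and 0 in K14-OPN. That gene was BC100530, another stefin A family member, with a log2 fold change of 6.12 ± 1.61 (adjusted p = 0.0459, edgeR). The median fitted change over the 23 genes was 0.95 in K14-OPN, 3.16 in WT and 2.95 in OPN-null. Of 10 granule genes that neutrophils transcribe mostly in the bone marrow, 6 were tested and none passed without the term for kind, while 1 had an unadjusted p under 0.05 in WT and 1 in OPN-null. In both it was Lcn2, which encodes the iron-withholding protein lipocalin 2 and is also made by epithelia. Lcn2 ranged from 5.69 to 93.3 CPM in the irradiated libraries (median 12.6), against 0 to 57.4 CPM in the unirradiated ones (median 0.326). With library kind as a term Lcn2 rose in OPN-null by 4.02 ± 1.29 (adjusted p = 0.0480, edgeR). The 4 granule genes not tested, Mpo, Elane, Prtn3 and Ctsg, had at most 23 counts in an irradiated library, against at most 5 in an unirradiated one. Of 5 eosinophil markers only Ccr3 was tested, at 6.04 ± 2.37 in K14-OPN (unadjusted p = 0.0231, adjusted p = 0.225, edgeR), and it had at most 22 counts in an irradiated library, against at most 1 in an unirradiated one. Siglecf had at most 23 counts in an irradiated library, against at most 3 in an unirradiated one, Ear2 at most 1 against 0, and Epx and Prg2 had 0 in all libraries.

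Of 11 chemoattractants and growth factors for neutrophils, 8 were tested and none passed in any genotype. Cxcl5, a ligand of the Cxcr2 receptor, had the smallest p in each, with log2 fold changes of 5.56 ± 1.66 in K14-OPN (adjusted p = 0.107), 8.93 ± 2.45 in WT (adjusted p = 0.129) and 4.80 ± 1.65 in OPN-null (adjusted p = 0.115). With library kind as a term Cxcl5 rose in K14-OPN and WT, with 5.57 ± 1.39 (adjusted p = 0.0260) and 7.49 ± 2.00 (adjusted p = 0.0490). Cxcl5 had 8 to 99 counts in an irradiated library, against at most 2 in an unirradiated one. It had 0 counts in both unirradiated WT libraries, so that the size of its WT changes depends on the prior count. Cxcl2, another ligand of that receptor, ranged from 14.0 to 2115 CPM in the irradiated libraries, against 2.58 to 4255 CPM in the unirradiated ones. The highest Cxcl2 value was that of unirradiated K14-OPN 1, and the medians were 447 CPM in the irradiated and 31.0 CPM in the unirradiated libraries. Calprotectin receptors, among them Tlr4 and Ager, held 6 genes of which none passed in any genotype without the term for kind.

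Genes that keratinocytes induce on wounding were also high in irradiated epidermis. Of 14, 2 rose after UVB in K14-OPN, 0 in WT and 6 in OPN-null, where 1.06%, 0.0952% and 3.41% of all genes passed. In K14-OPN these were Serpinb3b, with 3.14 ± 0.64 (adjusted p = 0.0283), and Defb3, which encodes a beta-defensin, with 5.98 ± 1.38 (adjusted p = 0.0456). In OPN-null, Krt6a rose by 6.32 ± 1.33 (adjusted p = 0.0167), Krt16 by 4.81 ± 1.09 (adjusted p = 0.0238) and Krt6b by 6.63 ± 1.57 (adjusted p = 0.0293) on the log2 scale. Krt16 ranged from 3744 to 13366 CPM in the irradiated libraries, against 159 to 2991 CPM in the unirradiated ones, without overlap. With library kind as a term, 9 of the 14 rose in K14-OPN, 9 in WT and 13 in OPN-null, where 7.71%, 3.73% and 13.7% of all genes passed. Stfa3 was in this list and in that of mature neutrophil genes.

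Of 10 other epidermal S100 genes, none passed in any genotype without the term for kind. With it, S100a11 rose in all 3 genotypes, by 2.61 ± 0.31 in K14-OPN, 2.42 ± 0.37 in WT and 2.61 ± 0.31 in OPN-null (largest adjusted p = 0.00473, edgeR). Among macrophage and monocyte markers, Cd68, a lysosomal protein of macrophages that other cells also make, rose in K14-OPN by 3.08 ± 0.69 (adjusted p = 0.0396) and was the only one of 10 called in any genotype without the term for kind. Dermal fibroblast genes summed to 85.1 to 193 CPM in irradiated K14-OPN, against 528 to 3170 CPM in unirradiated K14-OPN. In OPN-null they summed to 13.5 to 566 CPM after UVB, against 3574 to 4404 CPM without UVB. In WT they summed to 68.3 to 318 CPM after UVB, against 146 and 2829 CPM without UVB. The groups overlapped in WT and not in K14-OPN or OPN-null. Their part in the UVB differences was not tested.

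**Figure D4:**
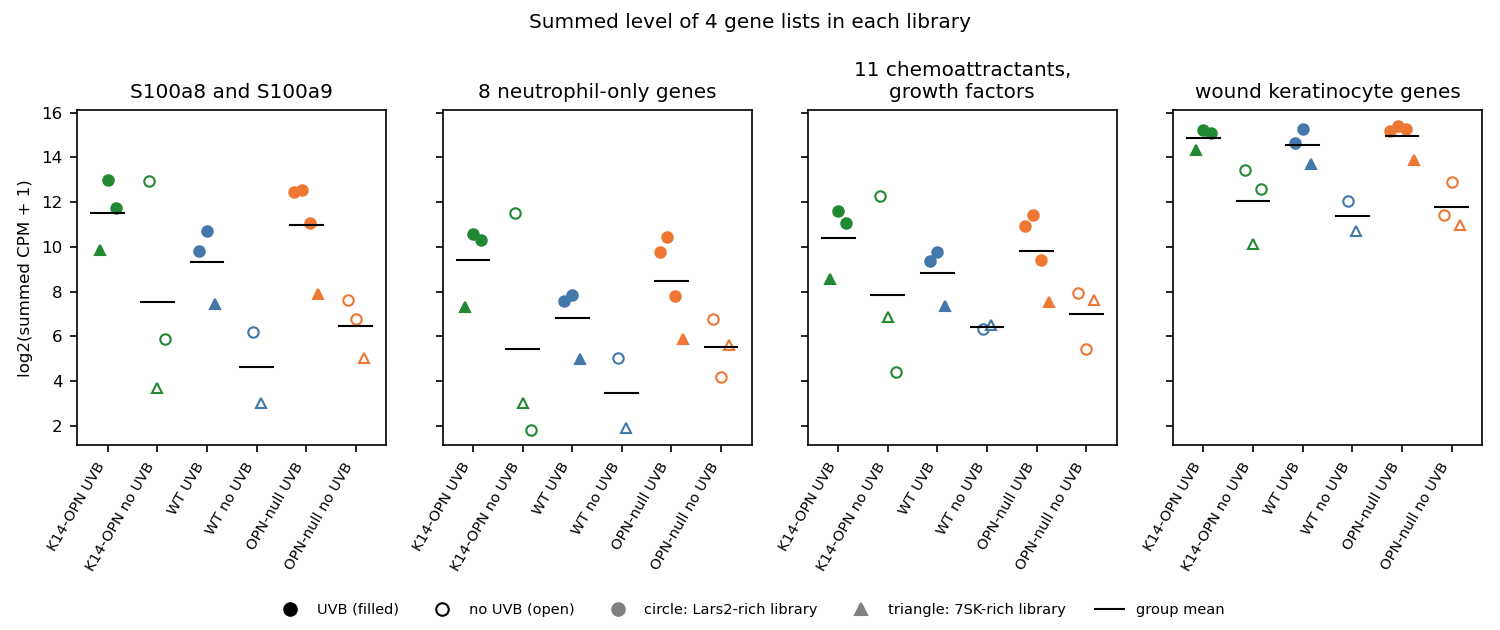
Summed level of S100a8 and S100a9, of the 8 neutrophil-only genes, of 11 chemoattractants and growth factors and of 14 wound keratinocyte genes in each library, as log2 of summed CPM plus 1; symbols are as in the plot of single genes. Irradiated and unirradiated libraries separate without overlap in the wound keratinocyte genes, and unirradiated K14-OPN 1 is high in all 4 panels.

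Across the 18 libraries, the genes whose log2 CPM most resembled the mean of S100a8 and S100a9 were Efhd2 (Pearson r = 0.983), Ier3 (0.966), Tspo (0.965), Tes (0.965) and Glrx (0.963), out of 10405 genes ranked. Those most like the mean of the neutrophil-only genes were Mcemp1 (0.991), Cd14 (0.988), Csf3 (0.981), Fcer1g (0.981) and Mirt2 (0.978). The S100 pair had r = 0.728 with Ly6g, 0.814 with Csf3r, 0.857 with Cxcr2 and 0.882 with Clec4e. It had 0.886 with Retnlg, 0.926 with Clec4d and 0.935 with Stfa2l1, and 0.893 with the wound keratin gene Krt16 and 0.955 with Cxcl2. The neutrophil-only mean had r = 0.769 with Krt16 and 0.972 with Cxcl2. In the Lars2-rich libraries alone, the S100 pair had r = 0.712 with Ly6g, 0.877 with Csf3r, 0.941 with Cxcr2 and 0.886 with Krt16. These values describe libraries that share library kind, depth and the UVB groups, and no p is given.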

How the data were processed

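RNA-seq of 18 epidermis libraries was deposited as 1 table of whole-number read counts per gene, unnormalised. Per the submitters' processing notes, the tools were HTSeq 0.11.3, STAR 2.7.5a, Trim Galore 0.6.5 and bcl2fastq 2.18.0.12, and the build GRCm38; the sources used here give neither strand nor counting mode, and 5 summary lines were left out of library totals. Of 56246 gene identifiers, 55230 matched GENCODE M21 and gave names. The counts were fitted with edgeR 4.0.16 in R 4.3.3 (TMM, filterByExpr, 6 group means, quasi-likelihood test, Benjamini-Hochberg over 18910 genes, threshold 0.05). The same fit was also run on counts simulated with the means and dispersions of these data. Log2 CPM used a prior count of 2, and fold changes 0.125. Exact permutation tests and motif searches used Python 3.11.15. Alternatives included DESeq2 1.42.0 and limma 3.58.1. The members and gene lists were chosen with earlier results of these data known. Named genes were all members, and of each other list those called, or else up to 3 by smallest p; Cxcl2 and list genes not tested were named after their values were seen. A floor of 3 counts covers counting error only.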

Additional observations from a re-analysis of the deposited data

How the results depend on the processing

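None of the 9 genes passed under the design as fitted. Of all 18910 genes, 18 passed there in the UVB comparison of WT, 644 in OPN-null and 200 in K14-OPN. The alternatives moved the count for the 9 genes as follows. Without a filter on low counts, 3 passed in the UVB comparison of WT and 8 in that of OPN-null, 1 in K14-OPN over WT after UVB, 6 in K14-OPN over OPN-null and 7 in K14-OPN over WT without UVB, and 1 in the difference of response of K14-OPN from OPN-null. Of all 35412 genes then tested, 643, 1219, 5, 322, 86 and 140 passed in the same order. DESeq2 called 3 in WT and 3 in OPN-null after UVB, 1 in WT over OPN-null and 2 in K14-OPN over WT without UVB, and 1 in the difference of response of WT from OPN-null. Of all 18910 genes it called 883, 2347, 7, 12 and 4 in the same order. Limma with quality weights called 1 in OPN-null, 2 in K14-OPN and 2 in K14-OPN over WT after UVB. Of all genes it called 2320, 1424 and 774 in the same order. Fitting only the compared groups called 6 in OPN-null, and the term for kind or Lars2-rich libraries alone called 1 there. Of all genes these fits called 837, 2594 and 1923 in the same order. The cause of these differences was not tested. Leaving out single libraries gave 0 to 5 in the UVB comparison of K14-OPN (5 without unirradiated library 1) and 0 elsewhere. Without that library 796 of all genes passed in that comparison. With the kind term and without that library, an alternative chosen after seeing the data, 8 passed, as did 2212 of all genes. Leaving out the 3 unirradiated libraries that stood apart by their hair genes or few detected genes (OPN-null 9, WT 10, K14-OPN 11), also chosen after seeing the data, gave 0. RLE scaling changed no count for the 9 genes.

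Directions reversed mostly in the UVB comparison of K14-OPN, where several fitted log2 changes were near 0. Ly6g (0.02) became -0.0737 with RLE scaling, -0.11 with DESeq2 and -0.62 without the 3 libraries that stood apart. S100a9 (0.41) became -0.21 without those 3. Retnlg (-1.04) became 4.17 with limma, and 7.35 with the kind term and without unirradiated K14-OPN 1. Clec4d (-0.37) became 3.10 with limma, 0.28 with the kind term, and 6.24 with that term and without that library. Stfa2l1 (-0.01) became 0.00667 without a filter, 0.15 with only the compared groups, 5.25 with limma, 0.64 with the kind term, 0.0194 in Lars2-rich libraries, and 8.91 with the kind term and without that library. Leaving out single libraries gave -0.60 to 7.41 for Ly6g, -2.06 to 8.06 for Retnlg, -0.96 to 8.30 for Clec4d, -0.59 to 7.51 for S100a9 and -0.84 to 9.54 for Stfa2l1 in K14-OPN, and -1.29 to 2.25 for Ly6g in OPN-null. In K14-OPN over OPN-null after UVB it gave -0.530 to 0.854 for S100a8, -0.79 to 0.79 for S100a9, -0.508 to 1.61 for Retnlg and -0.62 to 1.20 for Stfa2l1, and in WT over OPN-null -0.663 to 0.0590 for Cxcr2. In the UVB comparison of WT no direction reversed under any alternative run.

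Between the irradiated and unirradiated groups of a genotype, only those of K14-OPN share replicate numbers, 1 and 2, and the labels do not say what a number marks. The numbers were therefore not taken to pair libraries. Deviations of same-numbered libraries correlated at -0.45 for number 1 and -0.58 for number 2. Each of these pairs joins a 7SK-rich and a Lars2-rich library, so the correlations cannot tell whether the numbers pair libraries. Irradiated library 1 and unirradiated library 2, both 7SK-rich, correlated at 0.64. With the replicate block 0 of the 9 passed and 69 genes in all, against 200 without it, and Retnlg became 6.15, Clec4d 7.16 and Stfa2l1 7.10. The smallest groups, of 2 and 3 libraries, and counts near 0 for Ly6g limit what could be detected.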

Other observations

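Beside Cd68, 1 gene of the keratinocyte list and 1 of the dermal fibroblast list passed in a UVB comparison, both in OPN-null. Krt15, a keratin of basal and hair follicle keratinocytes and 1 of 8 tested on its list, fell by 2.91 ± 0.70 on the log2 scale in OPN-null (SE, adjusted p = 0.0310, edgeR). In K14-OPN it stood at -2.78 ± 0.77 (adjusted p = 0.0865, edgeR), and at -3.04 ± 0.61 with library kind as a term (adjusted p = 0.00791). Col1a1, a collagen of dermal fibroblasts and 1 of 6 tested, fell by 4.39 ± 1.07 in OPN-null (adjusted p = 0.0335, edgeR). In K14-OPN it stood at -4.36 ± 1.21 (adjusted p = 0.0856, edgeR), and at -4.06 ± 1.09 with library kind as a term (adjusted p = 0.0328). Differences between genotypes in these 2 genes were not tested.

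Of 6 Langerhans cell, 3 T cell, 5 mast cell and basophil, 5 platelet and 4 red blood cell genes tested, 0 passed in edgeR without the term for kind in any genotype. At an unadjusted p under 0.05, 1 Langerhans cell gene passed in K14-OPN, and 1 platelet gene in OPN-null and 2 in WT. Langerhans cell markers summed to 263 to 476 CPM in irradiated K14-OPN, against 278 to 506 CPM in unirradiated K14-OPN. They summed to 225 to 489 CPM in irradiated WT, against 249 and 360 CPM in unirradiated WT. In irradiated OPN-null they summed to 268 to 385 CPM, against 427 to 486 CPM in unirradiated OPN-null. The groups overlapped in K14-OPN and WT and not in OPN-null.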
